A study of Drosophila melanogaster with 8 samples.

Results

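The small nuclear RNA (snRNA) genes of Drosophila melanogaster were taken as the genes of the Release 6 annotation whose symbol starts with snRNA:, which gave 32 of 17807 genes. There were 5 U1, 6 U2, 3 U4, 7 U5 and 3 U6 genes, 1 gene each for U11, U12, U4atac, U6atac, U7 and LU, and 2 genes for 7SK. Of these, 28 encode spliceosomal RNAs, while U7, LU and the 7SK pair do not carry the name of a spliceosomal RNA, so the set is broader than the spliceosome. The genes were 71 to 444 bp long, with 16 on chromosome arm 2L, 10 on 3R, 4 on 3L and 2 on X. The 28 genes with a peak in any library lay at 23 separate peak loci, because 9 genes shared 4 loci with a neighbour.

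Accessible chromatin had been mapped by ATAC-seq, in which the Tn5 transposase cuts open DNA, in nuclei of whole embryos. The 4 groups were mutant embryos at 2.5 to 3 h, wild-type (WT) embryos at 2.5 to 3 h, mutant embryos at 1 to 1.5 h and WT embryos at 1 to 1.5 h, with 2 libraries each. The study addressed IntS11 in the embryo. Each library name, WT or mutant, carries the words IntS11 mislocalized, so reading the mislocalization as the property of the mutant is an inference, and the labels give neither the allele nor the number of embryos. The windows are called late (2.5 to 3 h) and early (1 to 1.5 h) from here on.

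Spliceosomal snRNAs are the RNA cores of the particles that remove introns. U1 and U2 recognise the 5′ splice site and the branch point, and U4, U5 and U6 join as one particle before catalysis. U11, U12, U4atac and U6atac serve the minor class of introns. U7 guides the processing of histone mRNA 3′ ends, and 7SK holds the elongation kinase P-TEFb inactive. Most snRNA genes are transcribed by RNA polymerase II from compact promoters, and their transcripts are cut at the 3′ end by the Integrator complex, whose endonuclease is IntS11. The genes of U6, U6atac and 7SK are transcribed by RNA polymerase III instead and end without Integrator.

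Each deposited list belonged to 1 library and held 18706 and 15569 peaks in early mutant embryos, with a median width of 192 bp in both, the narrowest of the 8 lists. Early WT lists held 25201 and 23815 peaks with medians of 280 and 272 bp. Late lists were closer to each other, with 19995 and 19035 peaks in mutant embryos (medians 337 and 342 bp) and 19002 and 18440 in WT embryos (medians 365 and 364 bp). The lists hold positions without counts, so the depth of each library is unknown, and a stretch with no peak is one that was not called. In whole embryos, fewer cells with open chromatin at a gene and less open chromatin per cell cannot be told apart.

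A gene counted as called in a library when at least 1 bp of a peak lay within 250 bp of its span. Late mutant libraries called 23 and 22 snRNA genes (22.5 ± 0.707, SD, n = 2), against 25 and 24 in late WT libraries (24.5 ± 0.707, SD, n = 2). Early mutant libraries called 20 and 17 (18.5 ± 2.12, SD, n = 2), against 25 and 23 in early WT libraries (24 ± 1.41, SD, n = 2). The mutant counts lay below the WT counts without overlap in both windows, by 2 genes late and 5.5 genes early, but by 0 late and 2 early when genes sharing a locus were counted once. Over the whole annotation, late mutant libraries called 9442 and 9315 genes and late WT libraries 9610 and 9422, which overlap. Early mutant libraries called 8670 and 7818 genes and early WT libraries 10600 and 10340, so the early counts of all genes were lower in mutant embryos as well. All 4 mutant libraries called 15 snRNA genes and all 4 WT libraries called 22. Over the whole annotation these numbers were 6118 and 7866 genes, so they were lower in mutant embryos as well.

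**Figure D1:**
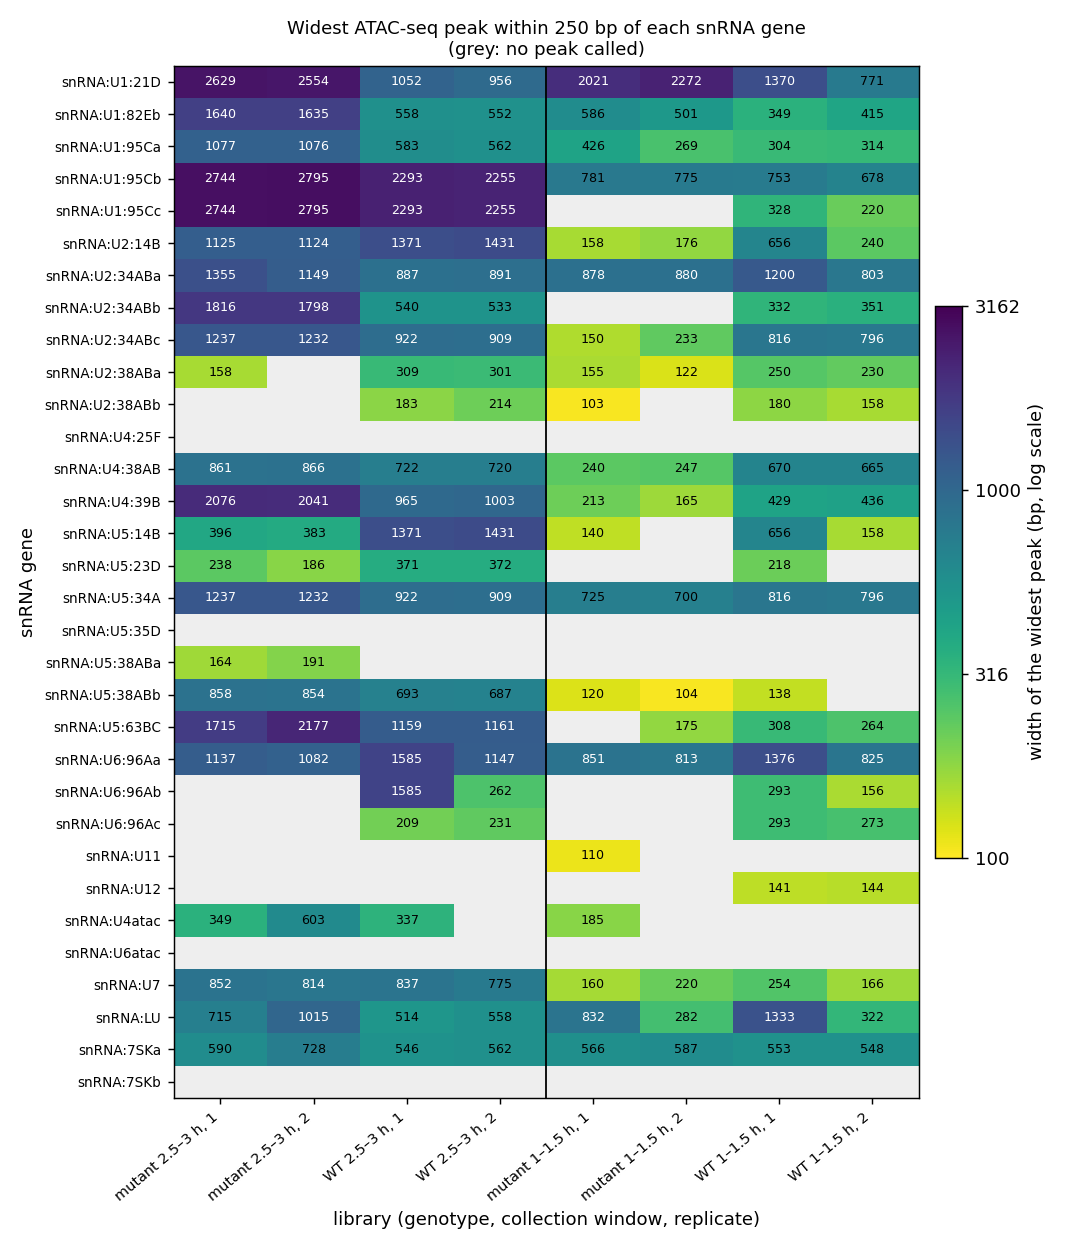
Width in bp of the widest peak within 250 bp of each snRNA gene (rows) in each library (columns, late window left of the line and mutant before WT in each window), on a log colour scale, with grey where no peak was called. The U1 genes hold the widest late mutant peaks, up to 2795 bp, and the rows of U6:96Ab and U6:96Ac are grey in all 4 mutant libraries.

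Across all 8 libraries, 14 snRNA genes were called in each one. They were U1:21D, U1:82Eb, U1:95Ca and U1:95Cb, U2:14B, U2:34ABa and U2:34ABc, U4:38AB and U4:39B, U5:34A, U6:96Aa, U7, LU and 7SKa. Every U1 gene was called in every late library and in every WT library. No library called U4:25F, U5:35D, U6atac or 7SKb, and the remaining 14 genes were called in some libraries. The minor spliceosome genes were rarely called. U11 had a peak of 110 bp in 1 early mutant library alone, U12 had peaks of 141 and 144 bp in the early WT libraries alone, and U4atac was called in both late mutant libraries (349 and 603 bp), 1 late WT library (337 bp) and 1 early mutant library (185 bp). Copies of one U class are nearly identical, so reads may have been shared between them, and a peak at one copy is uncertain to that extent.

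The late mutant peaks lay differently around the snRNA genes from the late WT peaks. For each gene called in all 4 late libraries, reach was the distance in bp to which its peaks extended beyond the gene, on each side. Only peaks within 250 bp of the gene counted. A separate peak of the other genotype farther out, inside an extended stretch, would therefore not be seen. A genotype reached past the other on a side when both of its libraries extended farther than both libraries of the other. At 10 of 20 snRNA genes (50%) late mutant peaks reached at least 500 bp past WT, against 0.572% of all genes (44 of 7697). Of the 44 genes, 10 were thus snRNA genes, and a further 2, Pect and scaRNA:MeU1:95C-A24, lay beside the same extended peaks. Of the 10, U1:95Cc and U1:95Cb shared one extended peak. The median distance of mutant past WT was 502.5 bp over the 20 snRNA genes and 0 bp over all genes. The reverse, late WT peaks at least 500 bp past mutant, was seen at 2 of 20 snRNA genes (10%), against 2.53% of all genes. These were U5:14B (985 bp) and U2:14B (639 bp), which shared a late WT peak. U2:14B was also among the 10, on its other side.

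Because a short gene leaves more of a peak outside its span than a long one, the same shares were taken over short genes. Among the 392 other genes of at most 444 bp, late mutant peaks reached 500 bp past WT at 9 (2.3%) and late WT peaks past mutant at 13 (3.32%). By biotype, the share for mutant past WT was 6.76% of snoRNA genes (5 of 74), 2.82% of tRNA genes (4 of 142), 0 of 51 miRNA genes and 0.312% of protein-coding genes (21 of 6730). The snRNA genes thus had the highest share of these biotypes in that direction.

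**Figure D2:**
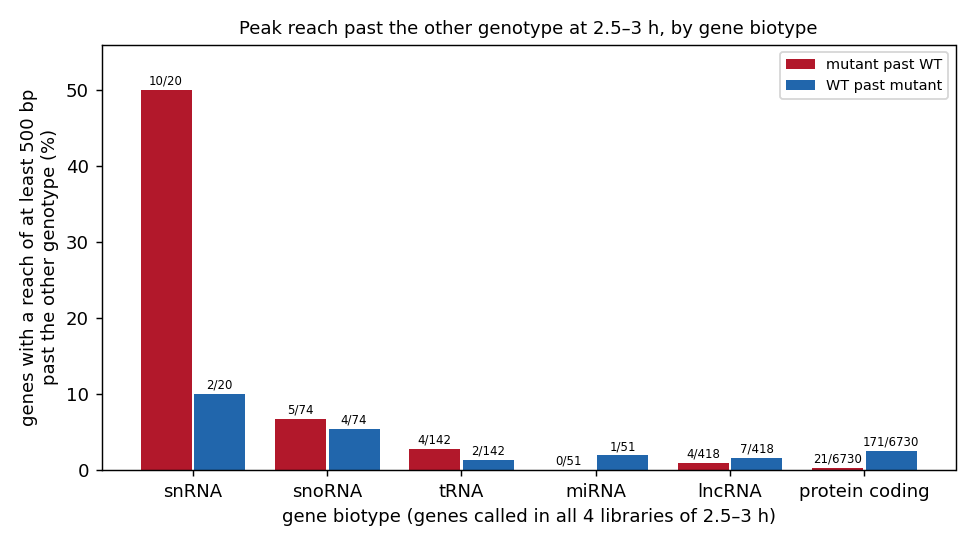
Share of genes (%), by biotype, at which peaks of one genotype reached at least 500 bp past those of the other at 2.5 to 3 h, among genes called in all 4 late libraries, with counts above the bars. The bar for mutant past WT stands at 50% for snRNA genes (10 of 20) and at 6.76% for snoRNA genes, the next highest.

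Among the U1 genes, which encode the 5′ splice site RNA, the longest extension was at U1:21D (2L:901491-901654). Its peaks reached 2338 and 2276 bp beyond the gene on the lower-coordinate side in late mutant libraries, against 700 and 604 bp in late WT libraries. The mean reach was 2307 ± 43.8 bp in late mutant and 652 ± 67.9 bp in late WT embryos (SD, n = 2 each), 3.54-fold. The 1576 bp by which both mutant libraries reached past both WT libraries lay wholly within Lsp1beta, a larval serum protein gene. At U1:82Eb (3R:4947933-4948096) the lower side reached 1350 and 1355 bp in late mutant libraries, against 205 and 199 bp in late WT libraries, which was 6.7-fold in the means. The libraries of each genotype were within a few bp of each other. U1:95Cc and U1:95Cb, neighbours on 3R, lay under one late peak of 2744 and 2795 bp in mutant and 2293 and 2255 bp in WT libraries, whose higher end lay 507 bp farther out in mutant embryos. U1:95Ca, just short of the threshold, reached 716 and 716 bp on its lower side in late mutant libraries and 218 and 193 bp in late WT libraries.

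U2, which pairs with the branch point, had an extended peak at 3 of its 6 genes. U2:34ABb (2L:13215839-13216030) reached 1532 and 1523 bp on the higher-coordinate side in late mutant libraries, against 234 and 225 bp in late WT libraries, 6.66-fold in the means. Its late peaks were 1816 and 1798 bp wide in mutant and 540 and 533 bp in WT embryos. U2:34ABa, the next copy on 2L, extended to the other side, reaching 1323 and 1275 bp on its lower side in late mutant libraries and 581 and 589 bp in late WT libraries. The pair therefore extended away from each other. U2:14B (X:16254672-16254863) reached 1244 and 1243 bp on its higher side in late mutant libraries and 382 and 442 bp in late WT libraries. The late mutant reach there was that of a second peak, which began beyond the gene. U2:34ABc and its neighbour U5:34A shared a late peak that ended 488 bp farther out in mutant embryos, at the same base in both libraries of each genotype.

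U4 pairs with U6 before splicing, and U4:39B (2L:21215036-21215178) reached 1805 and 1770 bp on its lower side in late mutant libraries, against 618 and 674 bp in late WT libraries. U4:38AB differed little by comparison, with 518 and 523 bp on its higher side in late mutant and 365 and 363 bp in late WT libraries. The U5 genes encode the RNA that aligns the exons. U5:63BC (3L:3090801-3090923) reached 1843 and 1888 bp on its higher side in late mutant libraries and 826 and 826 bp in late WT libraries, and the added 1017 bp lay within Cht7. U5:38ABb reached 967 and 939 bp on its higher side in late mutant and 318 and 318 bp in late WT libraries, into sick. U5:23D did not reach past WT, with 97 and 97 bp on its lower side in late mutant and 132 and 127 bp in late WT libraries. U5:14B reached past WT by only 10 bp on its lower side. On its higher side WT peaks reached 985 bp past mutant, with 143 and 127 bp in late mutant and 1128 and 1188 bp in late WT libraries.

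**Figure D3:**
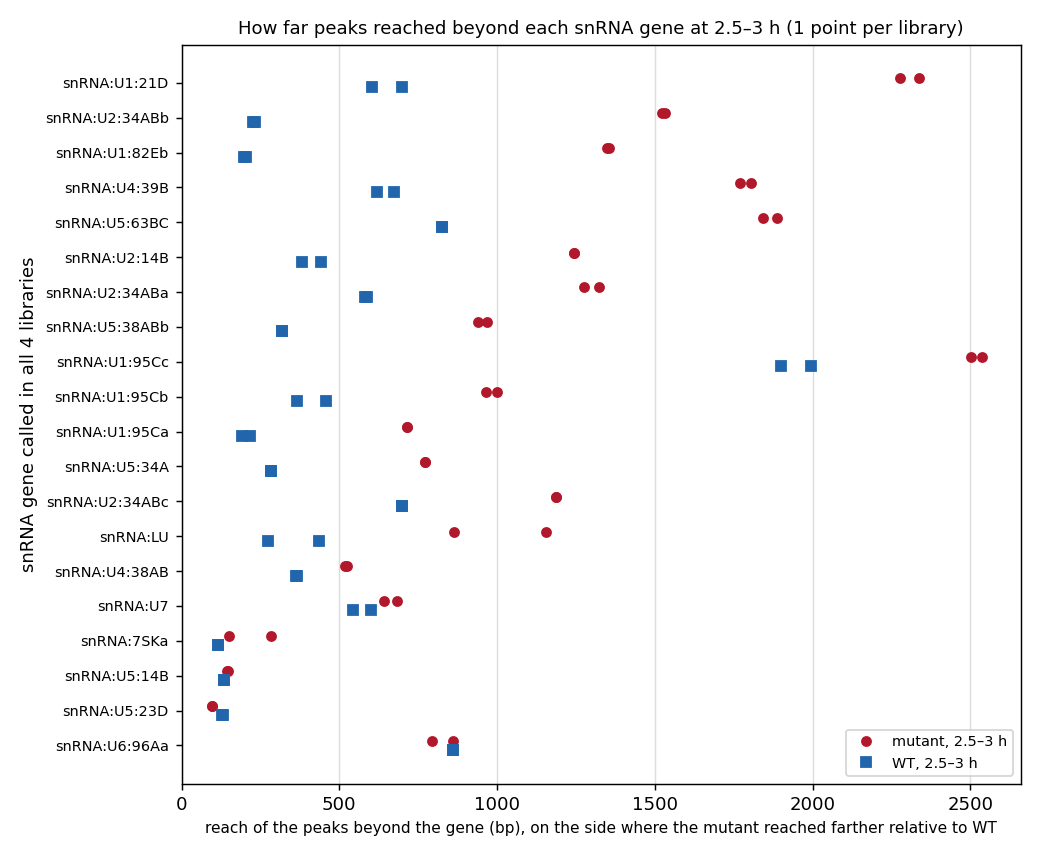
Reach in bp of the late peaks beyond each of the 20 snRNA genes called in all 4 late libraries, on the side where mutant peaks reached farther relative to WT, with 1 point per library (circles mutant, squares WT). The circles lie to the right of the squares at 18 genes, by 1576 bp at U1:21D, and U5:23D and U6:96Aa are the exceptions.

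Outside the major spliceosome, none of the 3 genes called in all 4 late libraries reached the 500 bp threshold. U7 reached 683 and 642 bp on its lower side in late mutant libraries and 543 and 600 bp in late WT libraries. The higher side of LU reached 865 and 1154 bp in late mutant and 274 and 435 bp in late WT libraries, 430 bp apart at the nearest. 7SKa reached 150 and 282 bp in late mutant and 117 and 116 bp in late WT libraries. Just inside the 500 bp threshold stood the U1:95Cc and U1:95Cb peak (507 bp) and U5:38ABb (621 bp), and just outside it U1:95Ca (498 bp) and the U2:34ABc and U5:34A peak (488 bp). Moving the threshold to 200 bp gave 14 of 20 snRNA genes against 1.53% of all genes, and 1000 bp gave 5 against 0.247%.

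The extension was one-sided, and on the opposite side the late mutant peaks stopped short of the WT peaks. By any distance, mutant peaks reached past WT on some side at 18 of 20 snRNA genes, against 8.44% of all genes, and WT peaks past mutant also at 18 of 20, against 41.4%. At 17 of 20 snRNA genes (85%) mutant peaks reached past WT on one side and WT peaks reached past mutant on the other, by any distance. This held for 1.65% of all genes (127 of 7697), for 6.89% of the 392 other short genes (27) and for 17.6% of miRNA genes (9 of 51). The exceptions among snRNA genes were U5:23D, 7SKa and U6:96Aa. The counts of extended and shifted genes were not reduced to separate loci. U1:95Cc and U1:95Cb, U2:34ABc and U5:34A, and U5:14B and U2:14B each shared a locus and were counted as separate genes. Reach was counted as 0 bp where peaks stopped before an edge of the gene, as on the lower side of U5:38ABb in both late mutant libraries. At the 10 extended genes WT peaks reached 22 to 639 bp past mutant on the opposite side. At other shifted genes an offset could be a few bp. WT peaks reached only 3 bp past mutant at U7, 4 bp at U1:95Ca and 7 bp at LU. At U1:82Eb, for example, the higher side reached 126 and 116 bp in late mutant libraries and 189 and 189 bp in late WT libraries. At U4:39B it reached 128 and 128 bp in late mutant and 204 and 186 bp in late WT libraries. At LU the late mutant peaks covered no base of the gene in either library, whereas the late WT peaks covered 100% of it in both. The annotation used gives no strand, so which side is the 3′ side was not determined, and the extended stretches could be described only by the genes they overlap. At 7 of the 10 extended genes the stretch lay wholly inside annotated neighbours, at U2:34ABb by 98.1% inside CG9426, at U1:82Eb by 60.8% inside lncRNA:CR45188, and at U2:14B in no annotated gene.

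**Figure D4:**
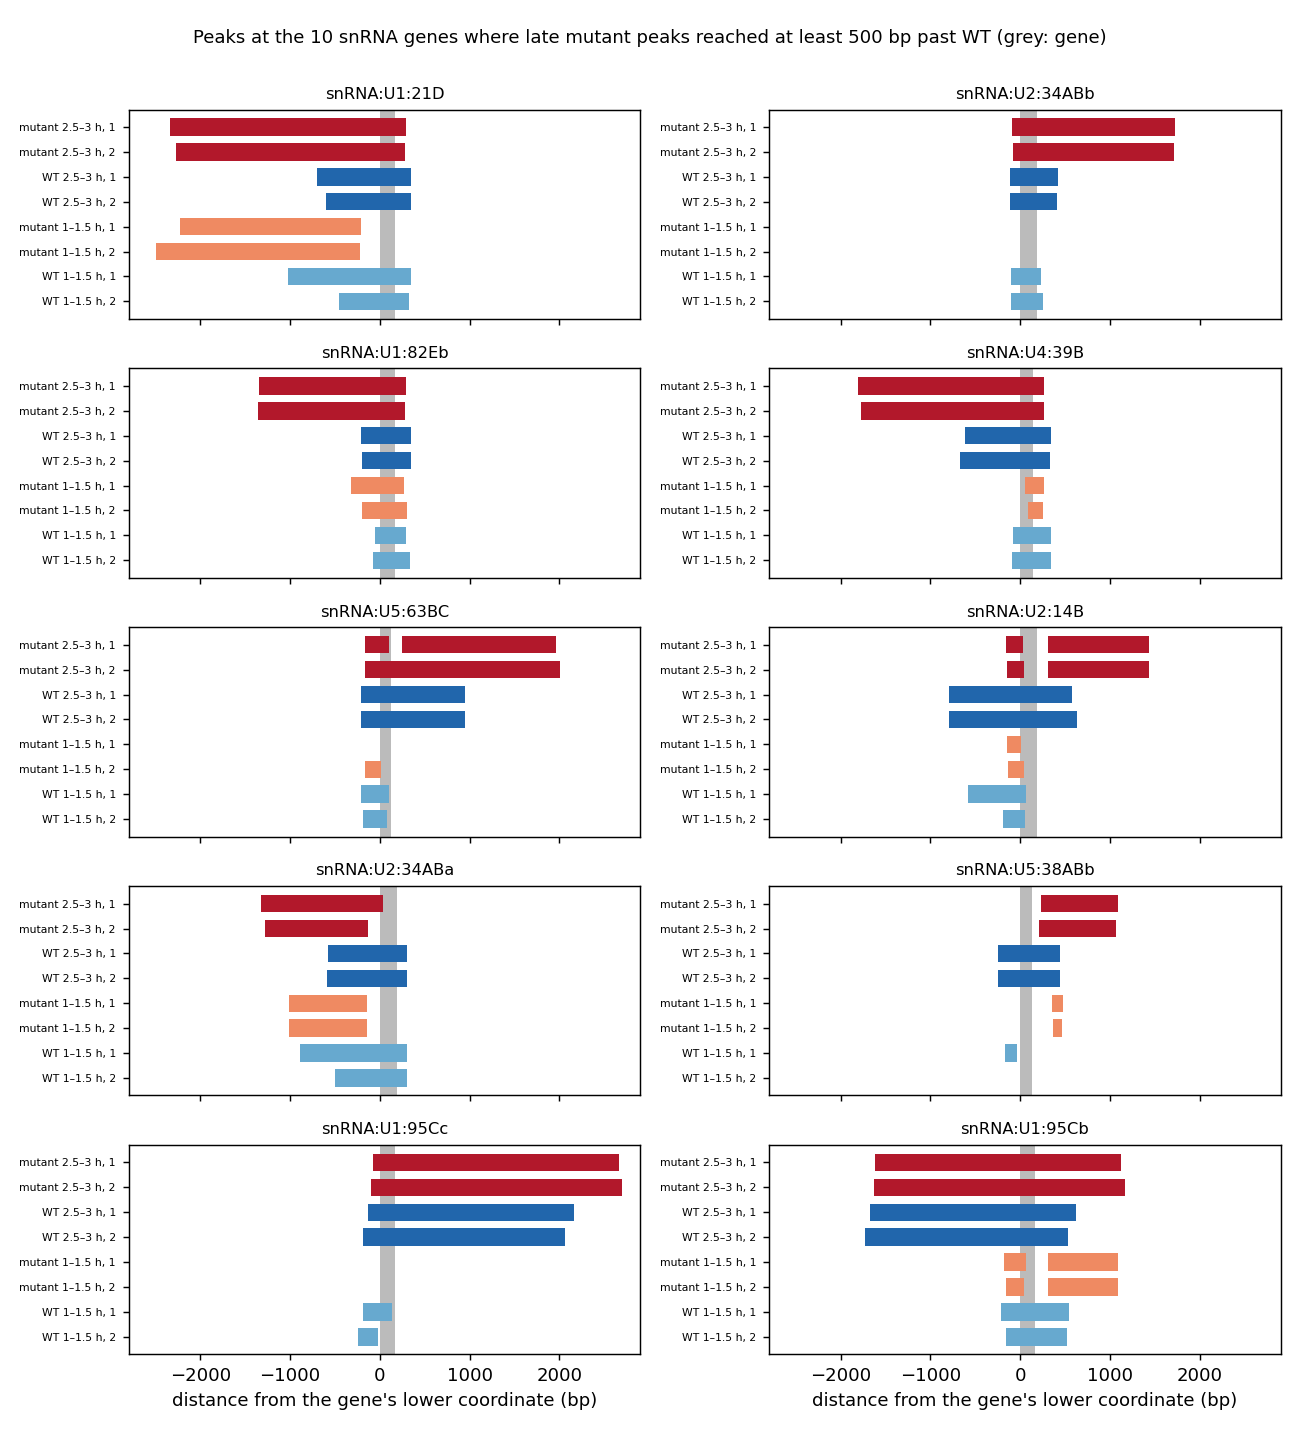
Peaks (bars) of the 8 libraries around the 10 snRNA genes where late mutant peaks reached at least 500 bp past WT, as distance in bp from the lower coordinate of the gene (grey band), in rows with mutant above WT in each window. Late mutant bars extend to one side past the late WT bars and stop short of them on the other side, by 22 to 639 bp in reach. Reach is 0 bp where bars stop before an edge of the gene, as on the lower side of U5:38ABb. Only peaks within 250 bp of the gene are drawn.

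Grouped by the polymerase known to transcribe them, the 25 polymerase II genes held all 10 extended genes, among 17 called in all 4 late libraries, and 16 of these 17 were shifted to one side. The 6 polymerase III genes held 2 that were called in all 4 late libraries, U6:96Aa and 7SKa, and neither was extended or shifted. U6:96Aa reached 860 and 795 bp on its lower side in late mutant libraries and 860 and 860 bp in late WT libraries. With 2 genes in the smaller group, the difference between polymerases was not tested. LU was left unassigned.

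Late mutant peaks also covered less of some snRNA genes themselves. At least 50% of the gene span lay under peaks at 15 and 16 snRNA genes in late mutant libraries, against 24 and 23 in late WT libraries. Early, the numbers were 7 and 6 in mutant libraries, against 20 and 17 in WT libraries. Of the 23 genes covered by at least 50% in both late WT libraries, 8 (34.8%) were covered by less in both late mutant libraries, against 22.4% of all genes. These 8 include U6:96Ab and U6:96Ac, which had no mutant peak at all. In the early window the number was 10 of 17 (58.8%), against 53.4% of all genes, so the early share was near that of the whole annotation. For tRNA genes the share was 22% late (36 of 164) and 15.7% early (21 of 134). For snoRNA genes it was 23.3% late (10 of 43) and 14.3% early (2 of 14). At U5:38ABb the late mutant peaks covered no base of the gene in either library, although both late WT libraries covered 100% of it, and U2:34ABc was covered by 26.6% and 24% in late mutant libraries and by 100% in both late WT libraries.

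A few snRNA genes had no peak at all in one genotype. A gene was lost when both libraries of WT called it and neither mutant library did, and gained in the reverse case. Late, 3 of 24 snRNA genes called in both WT libraries were lost (12.5%), against 5.51% of all genes, and 1 of 7 called in neither was gained (14.3%), against 5.54%. Early, 5 of 23 were lost (21.7%), against 13.2% of all genes, and 0 of 7 were gained, against 1.81%. Each of these counts rests on 5 snRNA genes or fewer.

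U6:96Ab and U6:96Ac were lost in both windows. U6 forms the catalytic centre of the spliceosome, and its 3 genes lie side by side on 3R. U6:96Ab (3R:24556692-24556798) had no peak in any mutant library, against 1585 and 262 bp in late WT and 293 and 156 bp in early WT libraries. The widest of these was 1 peak that joined it to U6:96Aa in a single late WT library. U6:96Ac (3R:24557215-24557321) had no peak in any mutant library, against 209 and 231 bp in late WT and 293 and 273 bp in early WT libraries. The third copy, U6:96Aa, kept its peak throughout, with 1137 and 1082 bp in late mutant, 1585 and 1147 bp in late WT, 851 and 813 bp in early mutant and 1376 and 825 bp in early WT libraries. Its late widths differed by less than the spread between the WT libraries.

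The other genes lost or gained changed class in one window. U2:38ABb (2L:19812646-19812836), lost late, had no peak in late mutant libraries and 183 and 214 bp in late WT libraries, but 103 bp in 1 early mutant library and 180 and 158 bp in early WT libraries. U5:38ABa (2L:19811948-19812074), the only gain, had peaks of 164 and 191 bp in late mutant libraries and no peak in the other 6. Its peaks covered no base of the gene and lay on its lower-coordinate side, toward U4:38AB. U12, of the minor spliceosome, and U2:34ABb and U1:95Cc were lost early. U2:34ABb had no peak in early mutant and 332 and 351 bp in early WT libraries, and U1:95Cc had no peak in early mutant and 328 and 220 bp in early WT libraries. U2:34ABb and U1:95Cc were called in all 4 late libraries and were among the genes with extended late mutant peaks.

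In the early window, mutant peaks extended past WT at few snRNA genes, and the difference from the late window was not tested. Among 15 snRNA genes called in all 4 early libraries, mutant peaks reached at least 500 bp past WT at 2 (13.3%), against 0.0932% of all genes (6 of 6437) and 0 of the 291 other short genes. The median distance was 0 bp over the snRNA genes and over all genes. U1:21D reached 2231 and 2489 bp on its lower side in early mutant libraries and 1024 and 451 bp in early WT libraries, the same side as late. Its early mutant peaks covered no base of the gene in either library, and its early WT peaks covered 100% in both. With a window of 500 bp around the gene the count was 6 in place of 2. U1:95Cb reached 925 and 923 bp on its higher side in early mutant and 378 and 357 bp in early WT libraries. Shifts to one side occurred at 4 of 15 snRNA genes (26.7%), U1:21D, U2:34ABa, U5:34A and U4:38AB, against 0.652% of all genes. The share was 4.47% of the other short genes, 13.2% of snoRNA genes and 12.9% of miRNA genes. Shifts numbered 10 with the 500 bp window, for which no early share of all genes is given. Early WT peaks reached 500 bp past mutant at 0 of 15 snRNA genes, against 3.01% of all genes. The overall narrowness of early mutant peaks moved with these values, and its part in them was not tested.

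Between windows, mutant embryos gained 4 of the 11 snRNA genes that neither early mutant library called (36.4%), against 11.4% of all genes. They were U5:23D, U2:34ABb, U5:38ABa and U1:95Cc. Late mutant embryos lost 0 of 16, against 4.33% of all genes. Late WT embryos gained 0 of 7, against 7.02%, and lost 1 of 23 (4.35%), U12, against 11.3%. Late mutant peaks lay at least 500 bp past early mutant peaks at 6 of 15 snRNA genes (40%), against 5.74% of all genes, and late WT peaks past early WT peaks at 5 of 22 (22.7%), against 5.33%. Such growth was not particular to snRNA genes. The shares were 27.9% of snoRNA and 30% of miRNA genes in mutant embryos, and 17.5% and 21.1% in WT embryos. At U4:39B, for example, peaks were 2076 and 2041 bp wide in late mutant and 213 and 165 bp in early mutant embryos, and 965 and 1003 bp in late WT and 429 and 436 bp in early WT embryos. The difference between genotypes in the change with time was not tested.

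Peak width was tested at each gene over both windows with a two-sided exact permutation test, in which genotypes were permuted within windows. Its 36 arrangements allow no p below 0.0556, so no gene could pass 0.05, and the lowest Benjamini-Hochberg adjusted p over 12875 genes was 0.217. At the smallest p stood 10 of the 28 snRNA genes with a peak, and 25.6% of all genes tested. Of these 10 genes, those wider in mutant embryos, as means over the windows, were U1:21D by 1331.75 bp, U1:82Eb by 622 bp, U1:95Cb by 279 bp and 7SKa by 65.5 bp. At the other 6 the mutant minus WT difference was -574 bp at U6:96Ab, -251.5 bp at U6:96Ac, -674.25 bp at U5:14B, -278.75 bp at U2:14B, -163.75 bp at U2:38ABa and -158 bp at U2:38ABb. U5:14B and U2:14B lay under a single late WT peak of 1371 and 1431 bp in the 2 libraries. In late mutant embryos separate peaks took its place, of 396 and 383 bp at U5:14B and 2 per library at U2:14B. The wider of the 2, of 1125 and 1124 bp, began 311 bp from the lower coordinate of U2:14B and covered no base of this gene. The narrower covered 19.8% and 20.8% of it.

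The proteins that make or use snRNAs were described over 58 names in 5 lists, of which 53 genes were matched. Late, 3 of 49 genes called in both WT libraries were lost (6.12%), and early 7 of 47 (14.9%), near the 5.51% and 13.2% of all genes, with no gain in either window. Late mutant peaks reached 500 bp past WT at 1 of the 40 pathway genes called in all 4 late libraries, IntS11 itself. Early, the number was 0 of 23. The IntS11 reach on the higher side was 909 and 939 bp in late mutant and 0 and 0 bp in late WT libraries. It ended inside a region, 3R:29747687-29748892, that all 4 WT libraries also called. Peaks beyond the window around the gene did not count, so the WT peaks in that region were left out of the reach. The extension at IntS11 thus does not show a stretch without WT peaks. The late losses were all among the Integrator subunits (3 of 11). IntS3, IntS9 and IntS10 had no peak in late mutant libraries, and late WT peaks were 215 and 399 bp wide at IntS3, 269 and 204 bp at IntS9 and 205 and 273 bp at IntS10.

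Early, 3 of 11 Integrator subunits were again lost, with no peak in mutant libraries. Early WT peaks were 269 and 163 bp wide at IntS3, 123 and 124 bp at IntS14 and 508 and 285 bp at asun. Of the 9 promoter factors, 0 were lost late and 1 early, Bdp1 of the polymerase III factor TFIIIB, with no early mutant peak and early WT peaks of 423 and 694 bp. Of the Sm ring and snRNP protein genes, 0 of 15 were lost late and 2 of 13 early, the tri-snRNP genes Prp3 (442 and 442 bp in early WT libraries) and Prp31 (455 and 283 bp). The export and assembly genes lost 0 of 11 late and 1 of 11 early, Gem3 (156 and 159 bp in early WT libraries), whose complex loads Sm proteins onto snRNAs. The U7 and 7SK partners lost 0 of 3 in either window.

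Some regions at the IntS11 locus separated the genotypes and others did not. A region at 3R:29745279-29745833 was called in 0 of 4 mutant and 4 of 4 WT libraries, and another at 3R:29746418-29747371 in 4 of 4 mutant and 0 of 4 WT libraries. The region at 3R:29747687-29748892 was called in 4 of 4 mutant and 4 of 4 WT libraries. That at 3R:29744924-29745117 was called in 0 of 4 mutant and 1 of 4 WT libraries. The share of all genes with regions that separate the genotypes was not taken.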

How the data were processed

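The data were 8 ATAC-seq peak lists, 1 per library, in 4 groups of 2. Per the submitters' processing notes, the build was dm6 and the tools were MACS2 (2.2.7.1) with Trimmomatic (0.39), Bowtie2 (2.2.5), SAMtools (1.18) and deepTools (3.5.1). Their settings, such as a shift of reads for Tn5, were not given in the sources used here. As deposited, a peak has a chromosome, a start and an end (3 columns) and no count, signal, fold or p-value, so no depth-based interval was set. The shortest peak differed between libraries from 100 to 156 bp. No 2 libraries held the same list. The labels do not say whether replicates were separate collections, so spreads and p-values may be technical.

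Coordinates are dm6, 1-based. Gene spans were those of RefSeq for the same assembly, without strand or exons. Peak presence, width, reach and cover of the gene were computed per gene in Python 3.11.15 with NumPy 2.4.6 and pandas 2.3.3, on every gene of the table, and the code was tested on simulated data. Shares over all genes include the snRNA genes. Peak width was 0 where no peak was called.

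By the rule for named genes, every snRNA gene was accounted for, with values for those lost or gained or called in every library, and pathway genes lost or gained were named. Other snRNA genes given with values, such as U5:63BC, U5:38ABb, U5:14B, U2:38ABa, U4atac and U11, were chosen after their values were seen. The members and lists were chosen with earlier results of these data known. The reach measures, the 500 bp threshold, the 50% cover, the grouping by polymerase and the shares over short genes were chosen after the data were seen. SmG, HEXIM and IntS15 were not matched to 1 gene. Alternatives changed the window, the shortest peak, the overlap, the list lengths and the libraries used. Sequences of these genes were not used here.

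No pairing of libraries by replicate number was seen in the values. The deviations of same-numbered libraries from their group means correlated at 0.0187 late and 0.0164 early over 12875 genes. Such a correlation cannot show that the libraries came from separate collections.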

Additional observations from a re-analysis of the deposited data

Results flagged for a closer look

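At 7 snRNA genes the difference in peak width between mutant and WT embryos took opposite signs in the 2 windows, with every mutant library wider than every WT library late and narrower, or without a peak, early. The difference between windows was not tested, and the share of all genes that meet this rule was not taken. The count of 7 is thus no result about snRNA genes in particular. U2:34ABb differed by 1270.5 bp late and -341.5 bp early, mutant minus WT, with no peak in early mutant embryos. U4:39B differed by 1074.5 bp late and -243.5 bp early, and U5:63BC by 786 bp late and -198.5 bp early. U1:95Cc differed by 495.5 bp late and -274 bp early. U2:34ABc and U5:34A, under one late peak, both differed by 319 bp late, and by -614.5 and -93.5 bp early. U4:38AB differed by 142.5 bp late and -424 bp early. Early mutant peaks were narrower in general, with a median of 192 bp against 280 and 272 bp in early WT libraries, and the part of this in the early differences was not tested.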

How the results depend on the processing

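At 2.5 to 3 h the 10 snRNA genes with mutant peaks past WT stayed at 10 with peaks of at least 200 bp, 50 bp of overlap, equal list lengths and common limits. They were 13 of 23 with a 500 bp window, against 1.61% of all genes, and 5 at a distance of 1000 bp. Under each of these settings but the distance, 17 genes were shifted to one side. WT past mutant gave 0 at 1000 bp in place of 2. Early, mutant past WT gave 6 with a 500 bp window, 1 with 50 bp of overlap and 1 at 1000 bp in place of 2. WT past mutant gave 1 with a 500 bp window and 1 at 200 bp in place of 0, and shifts numbered 10 with a 500 bp window in place of 4. The early counts with a 500 bp window have no share of all genes beside them.

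Counting separate loci left 1 of 3 late losses and 2 of 5 early losses, and lists of equal length (15569 peaks) left 3 early losses. The late gain was 0 with a 500 bp window, with peaks of at least 200 bp and with equal lengths. Late against early, mutant embryos lost 1 with equal lengths in place of 0, and gained 2 with a 500 bp window, 7 with peaks of at least 200 bp and 2 with equal lengths in place of 4. WT embryos lost 0 with peaks of at least 200 bp, equal lengths and common limits (156 bp) in place of 1, and gained 1, 2 and 1 in place of 0. The late difference in genes called (-2) was -3.5 with peaks of at least 200 bp, -3 with equal lengths and 0 by loci. The early one (-5.5) was -8.5, -2.5 and -2 under the same settings, and -8 with 50 bp of overlap or common limits.

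Leaving out 1 library gave 3 to 4 late losses, 1 to 2 late gains, 5 to 7 early losses and 0 to 2 early gains. The 2 late gains came without WT late replicate 1, and early gains came without mutant early replicate 2 (2) or WT early replicate 1 (1). With time, mutant losses ran from 0 to 2 and gains from 4 to 6, and WT losses were 1 to 1 and gains 0 to 2. Differences in genes called ran from -2.5 to -1.5 late and from -7 to -4 early. Mutant past WT gave 10 to 11 genes late and 2 to 3 early, WT past mutant 2 to 2 late and 0 to 2 early, and shifts 17 to 18 late and 5 to 6 early.

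With bases of the window covered in place of peak width, the difference over both windows turned to -174.25 bp at U2:34ABb and -175 bp at U1:95Cc, since extension outside the window no longer counts. With the replicate number as a block, 16 arrangements allow no exact permutation p below 0.125. The block leaves mean differences as they were by construction, as at U6:96Ab (-574 bp, exact permutation p = 0.125 with the block), and neither test can pass 0.05, so the block says nothing about stability. The lists give no depth.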

Other observations

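U3 snoRNA genes, chosen after their values were seen, also had extended late mutant peaks. U3 is a polymerase II transcript needed to process ribosomal RNA. snoRNA:U3:54Aa reached 1435 and 1467 bp on its lower-coordinate side in late mutant libraries, against 361 and 360 bp in late WT libraries. On its higher side it reached 0 and 0 bp in late mutant and 493 and 470 bp in late WT libraries. snoRNA:U3:54Ab reached 1066 and 1111 bp on its higher side in late mutant and 267 and 259 bp in late WT libraries, and snoRNA:U3:9B reached 467 and 483 bp in late mutant and 179 and 181 bp in late WT libraries. The last was under 500 bp past WT. A cluster on 2R with all 4 extended tRNA genes and snoRNA:185, also chosen after its values were seen, had large reach differences too. At tRNA:iMet-CAT-1-2 the higher side reached 1623 and 1628 bp in late mutant libraries and 300 and 305 bp in late WT libraries. Late WT peaks lay farther along this stretch as well, reaching 365 and 358 bp on the lower side of snoRNA:185. The late mutant peak thus spanned separate WT peaks, and only part of the stretch was without a WT peak.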
